A study of Arvicanthis niloticus with 5 samples.

Results

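The carbonic anhydrases of the Nile rat eye were described from 10 genes: Car2, Car3, Car4, Car5b, Car8, Car10, Car11, Car12, Car13 and Car14. They were found by symbol in a deposited table of mouse, rat and human orthologs, with human-style names such as CA2 counted as Car2. They are 10 of the 13982 genes that carried a symbol, and 11 transcripts stand for them. The Nile rat (Arvicanthis niloticus) is a day-active African rodent. The 5 samples in the labels carry the numbers 1, 3, 5, 7 and 9. Each is eye tissue of a wild type rat, with no second group and no treatment. They give no age, sex or time of day, and say that RNA of 5 rats went into 1 pooled library. The expression table holds 1 column of values and none per animal, so each value below is 1 measurement. Neither the labels nor the file tell whether that column combines the 5 samples or comes from a single one of them. It is called the pool below, after the labelled library. Brackets give 95% intervals for fragment counting alone, with no variation between animals.

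Carbonic anhydrases are zinc enzymes that turn carbon dioxide and water into bicarbonate and a proton, and back. In the eye they are best known from the ciliary epithelium, where bicarbonate formation drives the secretion of aqueous humour. Inhibitors of these enzymes are used to lower eye pressure in glaucoma. In the retina, Müller glia and pigment epithelium use them to handle the carbon dioxide and acid that photoreceptors release. The family divides by place: some members are dissolved in the cytosol, others sit in mitochondria, and others are held on the cell surface with the active site facing outward. A further set, the carbonic anhydrase-related proteins, keeps the fold but lacks the catalytic activity.

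The membrane-bound Car14 and the cytosolic Car2 were the most abundant members, and together they held 62.6% of the FPKM summed over the 10 genes. FPKM is the number of fragments per kilobase of transcript and per 1000000 mapped fragments, so it can be compared between genes of different length. Car14 stood at 64.3 FPKM [62.5 to 66.1] and Car2 at 59.2 FPKM [57.8 to 60.6]. Car12 followed at 22.5 FPKM [21.9 to 23.1], and Car3 at 17.1 FPKM [16.5 to 17.7]. These 4 genes held 82.7% of the family's FPKM. The other members lay at or below 10.4 FPKM, and the lowest was Car4 at 1.26 FPKM [0.979 to 1.60]. The highest member was thus 51.0-fold above the lowest [40.1 to 64.7]. Family genes below 1 FPKM are not among the 10, so the choice of members sets the lower end of this range.

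**Figure D1:**
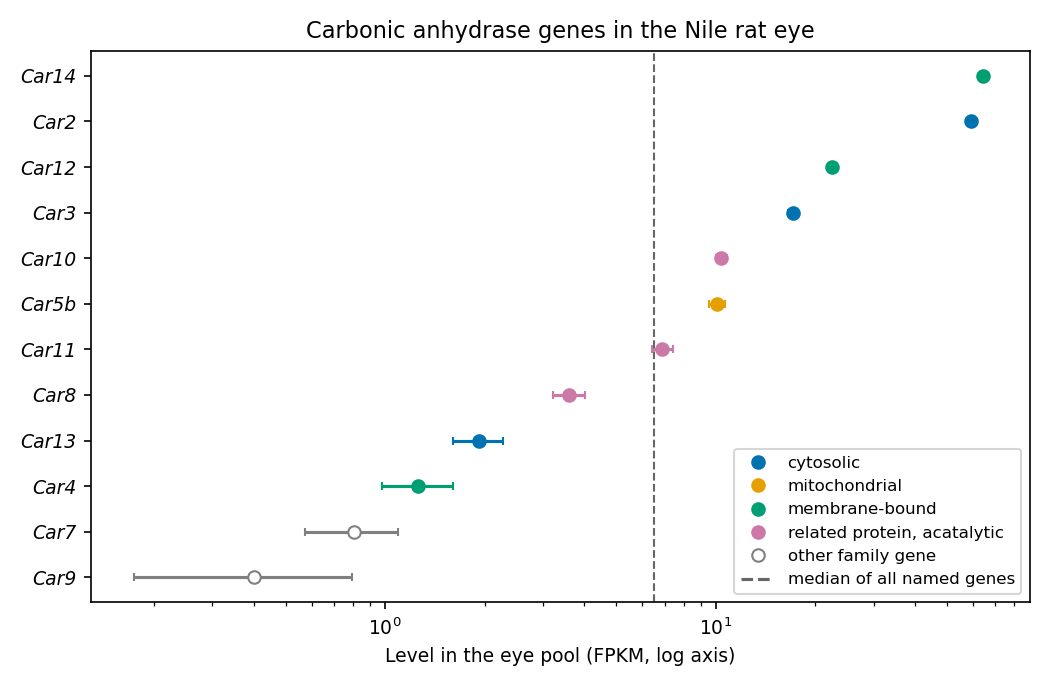
Level of each carbonic anhydrase gene in the eye pool, in FPKM on a log axis, with 95% counting intervals (hidden by the point where narrow) and colours for the place of the protein. Car14 (64.3 FPKM) and Car2 (59.2 FPKM) stand apart from the rest, and Car7 and Car9, drawn as open circles, lie below 1 FPKM.

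Of the 10 members, 6 reached 10 FPKM, and 34.0% of all named genes did so. The intervals of Car10 and Car5b, which are among the 6, hold 10 FPKM. The median of the members was 10.2 FPKM, beside 6.50 FPKM over all named genes. All 10 reached 1 FPKM, as did 93.2% of named genes, though the interval of Car4 [0.979 to 1.60] holds 1 FPKM. Nothing is read from these counts or from the median, because the family genes left out of the 10 are those that lay below 1 FPKM. Among named genes of at least 1 FPKM, 36.4% reached 10 FPKM and the median was 7.11 FPKM. The genes left out were Car7, a cytosolic enzyme known from brain, at 0.803 FPKM [0.573 to 1.09] on 40 fragments, and Car9, a cell-surface enzyme known for its induction by low oxygen, at 0.402 FPKM [0.174 to 0.793] on 8 fragments. With both added, 6 of 12 genes reached 10 FPKM and the median was 8.49 FPKM. No transcript carried the symbols Car1, Car5a, Car6 or Car15, and these genes were not analysed here.

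Car14 was higher than 95.8% of named genes and Car2 higher than 95.3%. Car12 and Car3 were above 84.8% and 80.0% of them. Car10 and Car5b lay above 67.3% and 66.4%, and Car11 sat near the middle, above 52.2%. Car8, Car13 and Car4 were in the lower part of the range, above 29.6%, 15.7% and 9.53% of named genes. All 10 together held 0.0801% [0.0790 to 0.0812] of the FPKM of named genes.

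**Figure D2:**
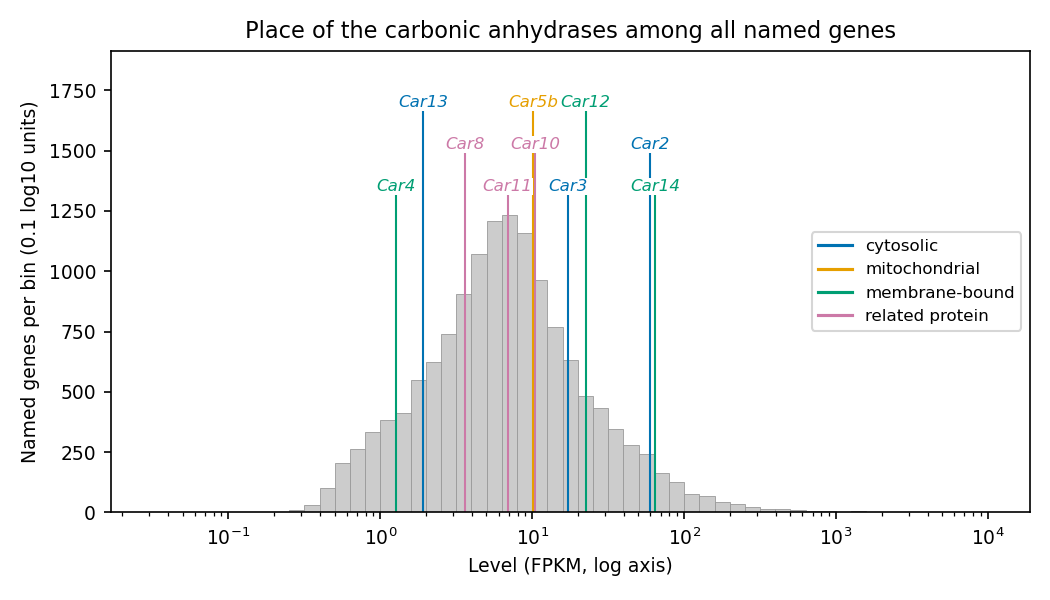
Number of named genes per bin of 0.1 log10 units (y axis) against level in FPKM on a log axis (x axis), with the 10 members drawn as coloured lines. The 10 members run from Car4, above 9.53% of named genes, to Car14, above 95.8%. Car7 and Car9, which lay below 1 FPKM, are not among the members and are not drawn.

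Among the cytosolic enzymes, Car2 was far above the others. Car2 is the fast, widespread isozyme and is a long-used marker of Müller glia. Its single transcript of 1793 nt held 6893 fragments, the most of any member. Car3, a slow isozyme that is abundant in skeletal muscle and fat, rested on 1 transcript of 2918 nt and 3247 fragments. Car2 was 3.45-fold above Car3 [3.31 to 3.60]. Car13, a further cytosolic isozyme, had 128 fragments on 1028 nt, or 1.92 FPKM [1.60 to 2.28], so that Car2 was 30.9-fold above it [25.9 to 36.8]. The 3 cytosolic genes summed to 78.2 FPKM [76.7 to 79.8].

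In the Nile rat RefSeq annotation (assembly mArvNil1.pat.X), the genes of these 3 enzymes lie side by side in the order Ca2, Ca3, Ca1, Ca13, with no other protein-coding gene between them. Neighbours in this cluster therefore ranged from 59.2 FPKM for Car2 through 17.1 FPKM for Car3 to 1.92 FPKM for Car13. Car1, the red cell isozyme that stands between Car3 and Car13, had no transcript under its symbol.

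Car2 and Car3 are also made by cells other than those of the retina and ciliary body, and markers of such cells were present in the pool. Car2 is abundant in red blood cells. Of the 8 red cell markers, 3 were measured: Hba-a1 at 158 FPKM, Hbb-b1 at 112 FPKM and Alas2, the heme synthesis enzyme of red cells, at 1.59 FPKM. For Car3, all 10 measured skeletal muscle markers of 12 listed reached 1 FPKM, as did 93.2% of all named genes. The muscle markers had a median of 47.1 FPKM and a range from 7.12 FPKM for Ttn (titin) to 174 FPKM for Tnnc2 (fast troponin C). Car3 was 7.42-fold [7.13 to 7.71] below myoglobin, Mb, which was at 127 FPKM, and 1.67-fold below muscle creatine kinase, Ckm [1.59 to 1.76]. The fat and skin list ran from 1.64 FPKM for Lor to 32.4 FPKM for Fabp4, a lipid carrier of fat cells, with Adipoq (adiponectin) at 18.3 FPKM. The part of red cells, muscle and fat in the levels of Car2 and Car3 was not tested. In a pool of whole eyes, the number of cells of a type and the RNA per cell cannot be told apart.

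The membrane-bound enzymes differed widely from one another. Car14 and Car12 span the membrane with the catalytic domain outside the cell. Car14 is known from Müller glia and the pigment epithelium, and Car12 from the ciliary epithelium. Car14 was 2.85-fold above Car12 per length [2.75 to 2.97], although Car12 held about as many fragments (5427, against 5347 for Car14). Its transcript of 3711 nt was the longest of the 11. Car4, which is held on the surface by a lipid anchor and is known from the choroidal capillaries, had 68 fragments on 830 nt. Car12 was 17.8-fold above Car4 [14.1 to 22.7]. The 3 genes summed to 88.0 FPKM [86.1 to 90.0], of which Car14 made up the larger part.

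Car14 was the one member with more than 1 transcript. A transcript of 1319 nt, carrying the Car14 symbol in mouse and human, stood at 61.8 FPKM [60.1 to 63.4] on 5292 fragments. A transcript of 339 nt, carrying the symbol in mouse alone, added 2.50 FPKM [1.88 to 3.25] on 55 fragments. Without the shorter one, Car14 thus lay just below the counting interval of the sum [62.5 to 66.1]. The shorter transcript mattered more when the transcripts were averaged by length, which gave Car14 49.6 FPKM and placed it below Car2.

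The order of the leading pair was not settled, because it depended on how transcripts and their lengths were treated. Summed, Car14 was 1.09-fold above Car2 [1.05 to 1.13], a log2 ratio of 0.12. The log2 ratio was 0.062 [0.010 to 0.11] with the longer transcript of Car14 alone, and -0.25 [-0.30 to -0.20] with the length-weighted mean. In fragments, without the division by length, it was -0.37. The length-weighted mean also turned the balance of the groups. The membrane-bound sum was 1.13-fold above the cytosolic sum [1.09 to 1.16], a log2 ratio of cytosolic to membrane-bound of -0.17. This ratio was 0.091 with the length-weighted mean, while in fragments it stayed negative, at -0.079.

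**Figure D3:**
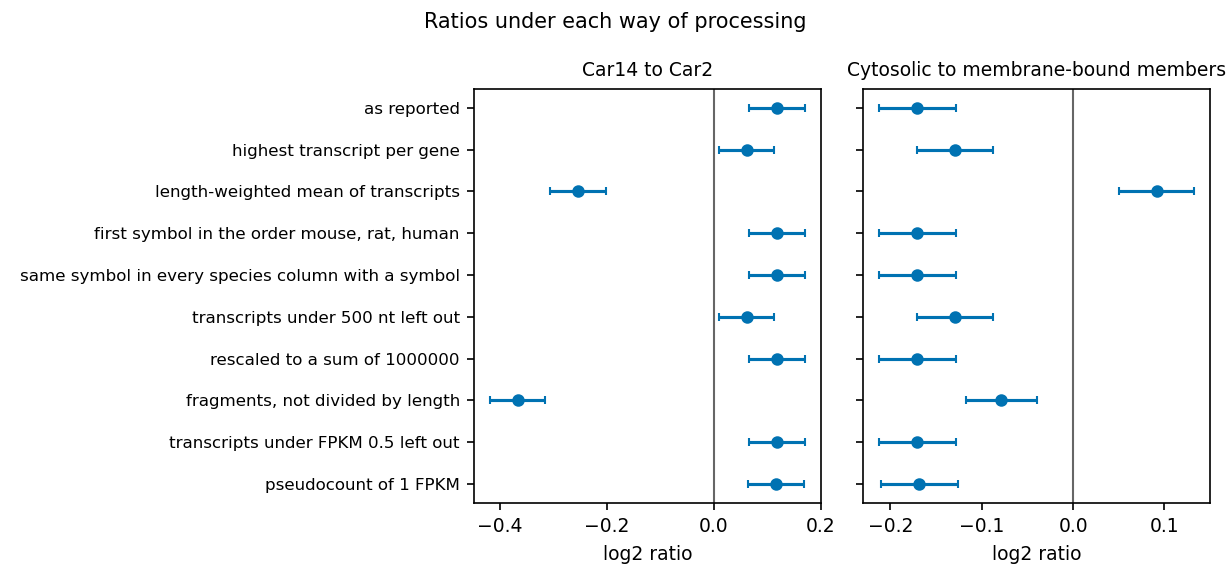
Log2 ratio of Car14 to Car2 (left) and of summed cytosolic to summed membrane-bound members (right) under each way of processing, with 95% counting intervals and a line at 0. Both ratios cross the line with the length-weighted mean of transcripts, and the left one also with fragments not divided by length.

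Vessel markers stood beside the low level of Car4. Of the 8 markers of vessels and choroid, 7 were measured and all 7 reached 1 FPKM, as did 93.2% of all named genes. Their median was 6.38 FPKM, beside 6.50 FPKM over all named genes, with a range from 2.81 FPKM for Vwf to 95.96 FPKM for Rgs5, a pericyte gene. Plvap, a protein of the openings in capillary walls such as those of the choroid, was at 29.2 FPKM, 23.2-fold above Car4 [18.2 to 29.4]. Plvap was the second highest of the 7. All 7 lay above Car4, and all but Rgs5 and Plvap lay nearer to it, Vwf the nearest. The measured Müller glia and pigment epithelium markers, given beside Car14 and Car2, all lay above the median of all named genes. All 8 Müller glia markers lay between 14.6 FPKM (the water channel Aqp4) and 818 FPKM (Apoe), with a median of 124 FPKM. The value of Apoe is a sum over 2 short transcripts, the longest of 299 nt. The 5 measured of 6 pigment epithelium markers lay between 26.9 FPKM (Lrat) and 432 FPKM (Rlbp1, which is also second in the Müller list), with Rpe65 at 238 FPKM. The ciliary body and iris list, relevant to Car12, had 11 of 11 genes measured, with a median of 16.6 FPKM. It ranged from 3.04 FPKM for Msx1 to 85.0 FPKM for Myoc, with Atp1b1 at 75.6 FPKM. Its genes are not all particular to that tissue. Des, the gene at the median, is also a muscle gene. Aqp1, Atp1b1 and Slc12a2 are also on the fluid secretion list, and Slc4a4 is among the bicarbonate transporters. The part of each cell type in the member levels was not tested.

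Car5b was the mitochondrial member. Mitochondrial carbonic anhydrase supplies bicarbonate to carboxylation reactions inside the organelle. Car5b held 1278 fragments on 1950 nt, or 10.1 FPKM [9.54 to 10.7]. Car2 was 5.87-fold above it [5.53 to 6.23] and Car14 6.37-fold [5.99 to 6.77]. Of the family's FPKM, 5.12% came from Car5b. Car5a, the mitochondrial isozyme known from liver, had no transcript under its symbol.

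The 3 related proteins without catalytic activity were all measured, and Car10 led them. Car10 is a secreted protein of neurons that binds neurexins, the presynaptic adhesion receptors. It held 2269.5 fragments on 3358 nt, or 10.4 FPKM [9.98 to 10.8]. Car11, its close relative, was at 6.88 FPKM [6.39 to 7.40] on 1621 nt. Car10 was 1.51-fold above Car11 [1.39 to 1.64]. Car8, which binds the inositol trisphosphate receptor and is known from Purkinje cells, was at 3.60 FPKM [3.22 to 4.01] on 330 fragments, 2.89-fold below Car10 [2.57 to 3.24]. Together these 3 genes reached 20.9 FPKM [20.1 to 21.7], or 10.6% of the family's FPKM. The 7 catalytic members summed to 176 FPKM [174 to 179], 8.44-fold more [8.12 to 8.78].

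Car11 and Car10 each overlap another gene in the RefSeq annotation. The span of Car11 meets that of its neighbour Dbp, a clock output factor that stood at 63.97 FPKM. The span of Car10 meets that of a pseudogene, LOC117711786. The counts of Car11 and Car10 were fractional, as were those of 39.3% of all transcripts, so fragments had been divided between transcripts. Whether the overlaps have a part in this was not tested. The labels do not say whether the libraries kept the strand, so fragments from either overlap cannot be assigned to 1 gene with certainty. The counts of Car3 and the longer Car14 transcript were fractional as well, though neither gene overlaps another in the annotation. The counts of the other 6 members were whole numbers.

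In the order of levels, neighbours could mostly be told apart by counting error. Of the 45 pairs of members, 44 had a ratio whose interval left out equality. The exception was Car10 and Car5b, at 10.4 and 10.1 FPKM, with a ratio of 1.03 [0.963 to 1.10]. The next closest pair was Car14 and Car2, whose direction depended on the processing. At the lower end Car13 was 1.52-fold above Car4 [1.13 to 2.04], a wide interval that reflects counts of 128 and 68. The interval of Car2 reached 2.35% below and 2.39% above its value, against 22.3% below and 26.8% above for Car4. With a single pool, none of these differences could be set against the spread between animals.

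**Figure D4:**
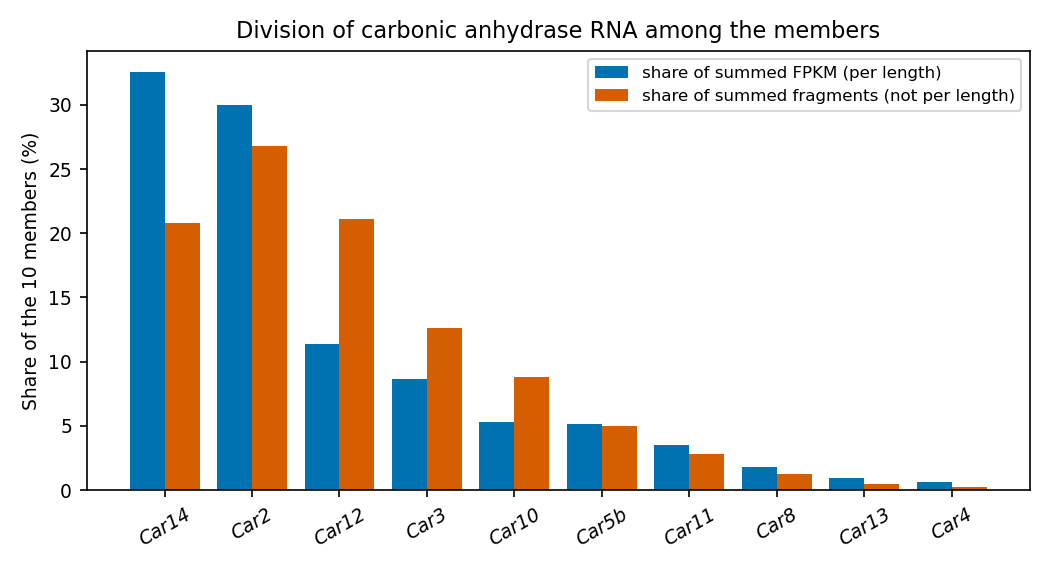
Share of each member in the summed FPKM (blue) and in the summed fragments (orange) of the 10 genes, in percent. Car14 falls from 32.6% of FPKM to 20.8% of fragments, while Car12, with the longest transcript, goes from 11.4% to 21.1%.

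As a share of fragments, Car2 was the leading member with 26.8%, followed by Car12 with 21.1% and Car14 with 20.8%. Car3 and Car10 held 12.6% and 8.83% of the fragments. These shares follow transcript length as well as abundance. Assembled lengths ran from 339 to 3711 nt, and a transcript assembled short or in pieces changes FPKM and fragment share differently.

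Genes that work beside carbonic anhydrases were measured in 4 lists. Bicarbonate transporters move the product of the reaction across membranes. Of 16 such genes, 9 were measured, all 9 passed 1 FPKM and 4 passed 10 FPKM, and their median was 9.88 FPKM. Among all named genes, 93.2% reached 1 FPKM and 34.0% reached 10 FPKM, and nothing is read from the list counts. The highest were Slc4a5, a sodium bicarbonate cotransporter, at 21.1 FPKM [20.6 to 21.6], and Slc26a7, an anion exchanger, at 19.3 FPKM [18.7 to 20.0]. The lowest was Slc26a3, a chloride and bicarbonate exchanger, at 1.59 FPKM. Slc4a4, the electrogenic sodium bicarbonate cotransporter of pigment epithelium, Müller glia and cornea, was at 8.34 FPKM [8.02 to 8.66]. Car2 was 7.10-fold [6.79 to 7.42] and Car14 7.71-fold [7.36 to 8.08] above Slc4a4, while Car4 was 6.61-fold below it [5.20 to 8.41].

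The proton and lactate list held transporters of protons or lactate, together with Bsg, Emb and Slc9a3r1, which are not transporters themselves. Of 17 genes, 14 were measured, all 14 reached 1 FPKM and 6 reached 10 FPKM, with a median of 7.62 FPKM. Among all named genes, 93.2% reached 1 FPKM and 34.0% reached 10 FPKM. Bsg, Emb and Slc9a3r1 are among the 6, and the highest sodium and proton exchanger was Slc9a3 at 8.26 FPKM. Bsg (basigin), the chaperone of the lactate transporters, was highest at 164 FPKM, and Slc16a1, a lactate transporter, followed at 40.8 FPKM. The lowest was Slc9a5, a sodium and proton exchanger, at 1.00 FPKM [0.831 to 1.20]. Its interval holds 1 FPKM, as does that of Slc9a8 [0.928 to 1.18]. Slc16a8, the lactate transporter of the pigment epithelium, was at 22.8 FPKM, close to the level of Car12.

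The fluid secretion list was higher than the carbonic anhydrases. Of 13 genes, 10 were measured and all 10 reached 10 FPKM, as did 34.0% of all named genes. The median of the list was 53.3 FPKM. Atp1b3, a sodium pump subunit, was highest at 178 FPKM and Aqp5, a water channel, followed at 136 FPKM. Clic6 was lowest at 13.0 FPKM. Car12 was close to Slc12a2, the sodium, potassium and chloride cotransporter of secretory epithelia, at 22.5 against 20.9 FPKM, a ratio of 1.08 [1.04 to 1.11]. The water channel Aqp1, at 66.7 FPKM, was 2.97-fold above Car12 [2.87 to 3.06].

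The list for the related proteins held their known binding partners and the receptor phosphatases that carry a carbonic anhydrase-like domain. Of 11 genes, 8 were measured, all 8 reached 1 FPKM and none reached 10 FPKM, with a median of 4.27 FPKM. Among all named genes, 93.2% reached 1 FPKM and 34.0% reached 10 FPKM. Ptprz1, a receptor phosphatase with such a domain, was highest at 9.62 FPKM [9.17 to 10.1]. Cntn4, a contactin that binds this type of domain, was at 7.06 FPKM, and Cntn6 was lowest at 1.14 FPKM. The neurexins Nrxn2 and Nrxn3 were at 6.63 and 5.51 FPKM, and Car10 was 1.57-fold above Nrxn2 [1.48 to 1.66]. Itpr1, the receptor bound by Car8, was at 1.75 FPKM [1.59 to 1.91], so that Car8 was 2.06-fold above it [1.79 to 2.37]. The 3 receptor genes Itpr1, Itpr2 and Itpr3 lay between 1.75 and 3.03 FPKM.

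**Figure D5:**
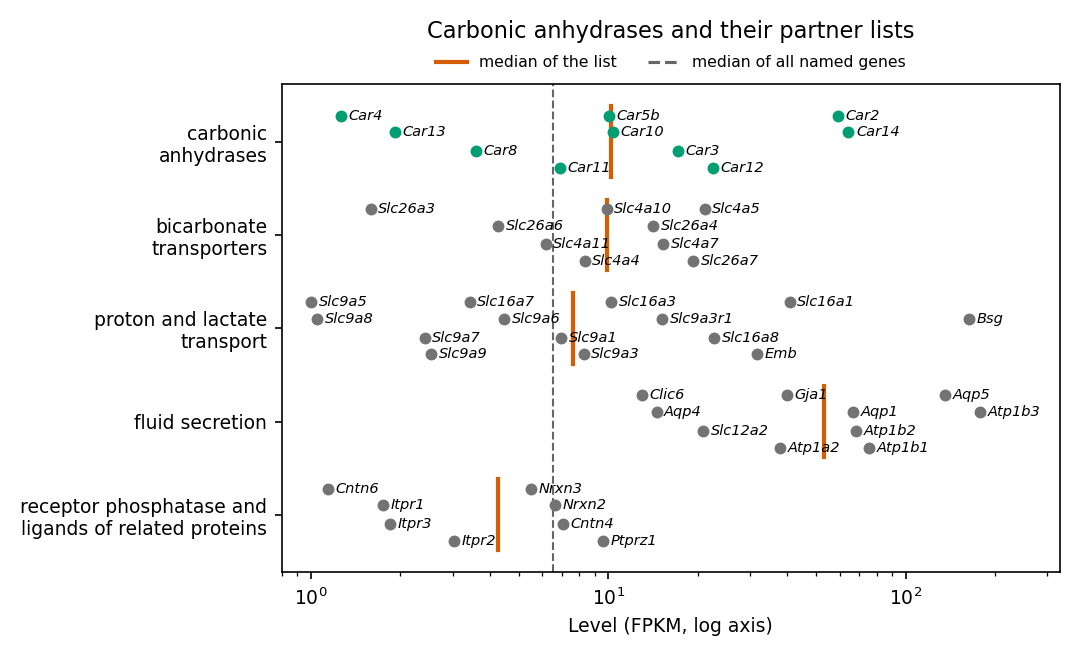
Level in FPKM (log axis) of each of the 10 members and of each measured gene of the 4 partner lists. Car7 and Car9 are not drawn and do not enter the median of the members. Orange bars are list medians and the dashed line is the median of all named genes, 6.50 FPKM. The fluid secretion genes lie highest (median 53.3 FPKM) and the binding partners of the related proteins lowest (median 4.27 FPKM).

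The remaining marker lists describe which tissue the pool held. The 8 lens markers lay between 194 FPKM (Mip) and 2894 FPKM (Cryab, on a transcript of 309 nt), with Grifin at 1528 FPKM. The 7 photoreceptor markers lay between 47.5 FPKM (Rcvrn) and 344 FPKM (Gnat1), with Pdc at 332 FPKM. The 7 measured markers of inner retinal neurons, given beside the neuronal protein Car10, had a median of 57.6 FPKM and were led by Calb2 at 148 FPKM and Nefl at 98.9 FPKM. The 6 measured corneal markers ranged from 6.16 FPKM for Slc4a11, which is also among the bicarbonate transporters, to 136 FPKM for Aqp5, with the corneal keratin Krt12 at 90.96 FPKM. The 5 myelin markers ranged from 5.92 FPKM for Cnp to 118 FPKM for Mbp. Named transcripts held 18.0% of all FPKM and 47.2% of all fragments, so any carbonic anhydrase RNA on a transcript without a symbol is missing from the levels given here.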

How the data were processed

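RNA of Nile rat eyes was sequenced as a pool, per the labels' protocols. The FPKM deposited by the authors is, per the file headers, given for 124439 transcripts with a total of 64967222 mapped fragments. A further column gives estimated counts of fragments, deposited without scaling by length or depth, which were fractional for 39.3% of transcripts. Bowtie was used, per the submitters' processing notes. Of its version, the assembly, the counting tool and the build, nothing is stated there. The FPKM was rebuilt from count, length and total within a relative tolerance of 1e-06.

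The FPKM of the transcripts that carried a symbol in any species column was summed per gene, for members and listed genes alike. The median, ranks and percentages of the 13982 named genes use the first symbol in the order mouse, rat, human. Levels carry 95% gamma (Fay-Feuer) intervals for Poisson counts, and ratios 95% delta-method intervals. Their calculation was checked on simulated Poisson fragments, which is the model that the intervals assume. That check cannot show how they hold where fragments were divided between transcripts or copied by PCR. PCR copies are not independent molecules. No p-value was computed. The members and all 16 lists were chosen with earlier results of these data known. Named are every member, the other family genes with a transcript, and the 2 highest and the lowest gene of each partner and marker list, of which some are not reported here. Other genes, and the members set against single partner or marker genes, were chosen after their values were seen. RefSeq served for gene names and order, and 9 of 10 members matched by symbol. The planned comparison of protein sequences was not made here. SciPy 1.17.1 gave the intervals, pandas 2.3.3 and NumPy 2.4.6 the sums, and Matplotlib 3.10.9 the plots, under Python 3.11.15.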

Additional observations from a re-analysis of the deposited data

How the results depend on the processing

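The 10 member levels, the median, the counts at 1 and 10 FPKM, the family's share and the ratios were recomputed under 9 other settings, of which the pseudocount applies to the ratios alone. The inclusion of Car7 and Car9, added after seeing the data, was run for the counts, the median, the share and the ratios between groups. Naming by the first symbol, naming only where all species with a symbol gave the same one, and leaving out transcripts under 0.5 FPKM moved none of these values beyond its counting interval. With the length-weighted mean, the log2 ratio of Car14 to Car2 turned to -0.25, that of cytosolic to membrane-bound members turned to 0.091, and that of catalytic to acatalytic members was 2.95 against 3.08; only Car14 among the members has more than 1 transcript. With fragments in place of FPKM these ratios were -0.37, -0.079 and 2.75, and the share was 0.0816%. Levels, median and counts at a threshold have no value in fragments. The share was 0.0830% with the highest transcript per gene and 0.0892% without transcripts under 500 nt. A pseudocount of 1 FPKM gave 3.02 for catalytic to acatalytic members. Rescaled to a sum of 1000000, every level was multiplied by 0.729, the median was 7.47, 4 members reached 10 and 9 reached 1, with Car4 at 0.920. With Car7 and Car9 the median was 8.49 FPKM. No paired analysis was possible because the table holds a single column and the labels a single group, and for the same reason no sample could be left out. Depth limits Car4 and Car13 most, with 68 and 128 fragments.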

Other observations

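Among the members, 3 had a symbol-bearing transcript for the protein-coding gene on each side in the RefSeq order, and the other members are not shown here. Car14 lies between Aph1a at 18.7 FPKM and Anp32e at 111 FPKM, Car8 between Rab2a at 83.3 FPKM and Tox at 6.42 FPKM, and Car4 between Usp32 at 6.09 FPKM and Znhit3 at 21.1 FPKM.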
